A study of Saccharomyces cerevisiae with 9 samples.

Results

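The genes described here are the 10 yeast genes DAL1, DAL2, DAL3, DAL4, DAL5, DAL7, DAL80, DAL81, DAL82 and DUR3, which serve the use of allantoin and urea as nitrogen sources. They were followed through every probe set, a group of short probes for 1 transcript, that the array's platform annotation assigns to exactly 1 of them. That gave 12 probe sets, with 3 for DAL5 and 1 for each other gene, among 5656 genes named by single-gene probe sets and 9275 probe sets tested in all. The annotation alone picks the probe sets, but the genes were chosen by their shared pathway with their signals in these same 3 groups already seen. Their values are therefore given as a description, without p-values, and support nothing beyond themselves. Where a value is said to pass the threshold, this only tells how the fit labelled it (limma, Benjamini-Hochberg adjusted p under 0.05). Such a label is part of the description and no test of these genes.

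Transcript levels of the yeast Saccharomyces cerevisiae came from 9 arrays of the Affymetrix Yeast S98 design, with 3 groups of 3. The commercial dry active yeast is known by that name alone: its labels repeat the BY4743 protocol, and no source used here gives its strain, culture or drying. The dried BY4743 cells were grown in YPD, a rich glucose medium, at 30 °C to an A600 of 0.8 and resuspended in YPD diluted 20-fold, dried for 42 h and then held at 20% relative humidity for 72 h. The control BY4743 cells had the same growth and resuspension and were sampled before drying. BY4743, a diploid relative of the S288C laboratory strain, has URA3, LEU2 and HIS3 disrupted on both chromosome sets and LYS2 and MET15 (also called MET17) each on 1 of them. Both BY4743 groups carry this genotype. Time, nutrients and drying differ together between dried and control cells, and strain, culture and drying differ together between commercial yeast and either BY4743 group, so these cannot be told apart. Whether a group's arrays stem from separate cultures is not stated, so p-values reflect only how these arrays varied, possibly for technical reasons. In RNA from whole populations, fewer cells holding a transcript and less transcript per cell cannot be told apart.

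Allantoin is a nitrogen-rich breakdown product of purines that yeast can take up and store. Allantoinase opens its ring to give allantoate, allantoicase and ureidoglycolate lyase split this into urea and glyoxylate, and urea amidolyase, the product of DUR1,2, turns urea into ammonia. The genes are held down while better nitrogen sources such as glutamine are present, which is called nitrogen catabolite repression. The GATA-type activators Gln3 and Gat1 switch the genes on when such sources run out, Dal80 acts against them at the same kind of site, and Dal81 and Dal82 add induction by a pathway intermediate.

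Signals below are normalized intensities on a linear scale, in arbitrary units, and ± is the SD over 3 arrays. Background on an array is set by 28 control probe sets with no target in the sample, at their 95th percentile, and it ran from 32.2 to 59.5. Between 72.1% and 81.3% of the tested probe sets of an array lay above it. A log2 change is the difference of group means of log2 signal from one fit over all 9 arrays, with its standard error (SE). Where no array of a group exceeded its background, a fold is written as "at least", against that background. Spike-in scaling, given below as an alternative, sets the arrays by 9 probe sets of the controls BioB, BioC, BioDn and CreX. It is not read here as RNA per cell. The level of one probe set says nothing about its transcript's abundance relative to another gene's. How well the probes match the sequence of the commercial strain was not tested. Signals that are low in commercial yeast carry this limit. URA3 lay at background on all 6 BY4743 arrays (signals of 1 to 3.22) and read 332 to 404 in commercial yeast, which matches the labels, but LEU2, by its brightest probe set, read 73.0 to 95.8 on the control arrays, above background, against the genotype. The same LEU2 probe set lay at background in dried BY4743 (13.2 to 40.1), and the other 2 LEU2 probe sets lay at background on all 6 BY4743 arrays. The 3' minus 5' control signal of ACT1, a measure of RNA quality, was 0.418 ± 0.0980 (log2) in commercial yeast, 1.40 ± 0.173 in dried BY4743 and -0.395 ± 0.274 in the control. For SPT15 and SRB4 the same measure was highest in commercial yeast, with means of 1.99 and 2.62, against 1.63 and 1.48 in dried BY4743 and 1.31 and 1.20 in the control. RNA quality moved with the groups, and its part in the differences below was not tested.

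The pathway's genes did not move as a block. DAL1, DAL3, DAL4, DUR3 and DAL80 were highest in commercial yeast, whereas DAL2, DAL5, DAL81 and DAL82 were highest in dried BY4743. With spike-in scaling DUR3 was not highest there, and DAL3, DAL4 and DAL80 passed the threshold against only 1 of the BY4743 groups. DAL7 stayed at or near background in every group.

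**Figure D1:**
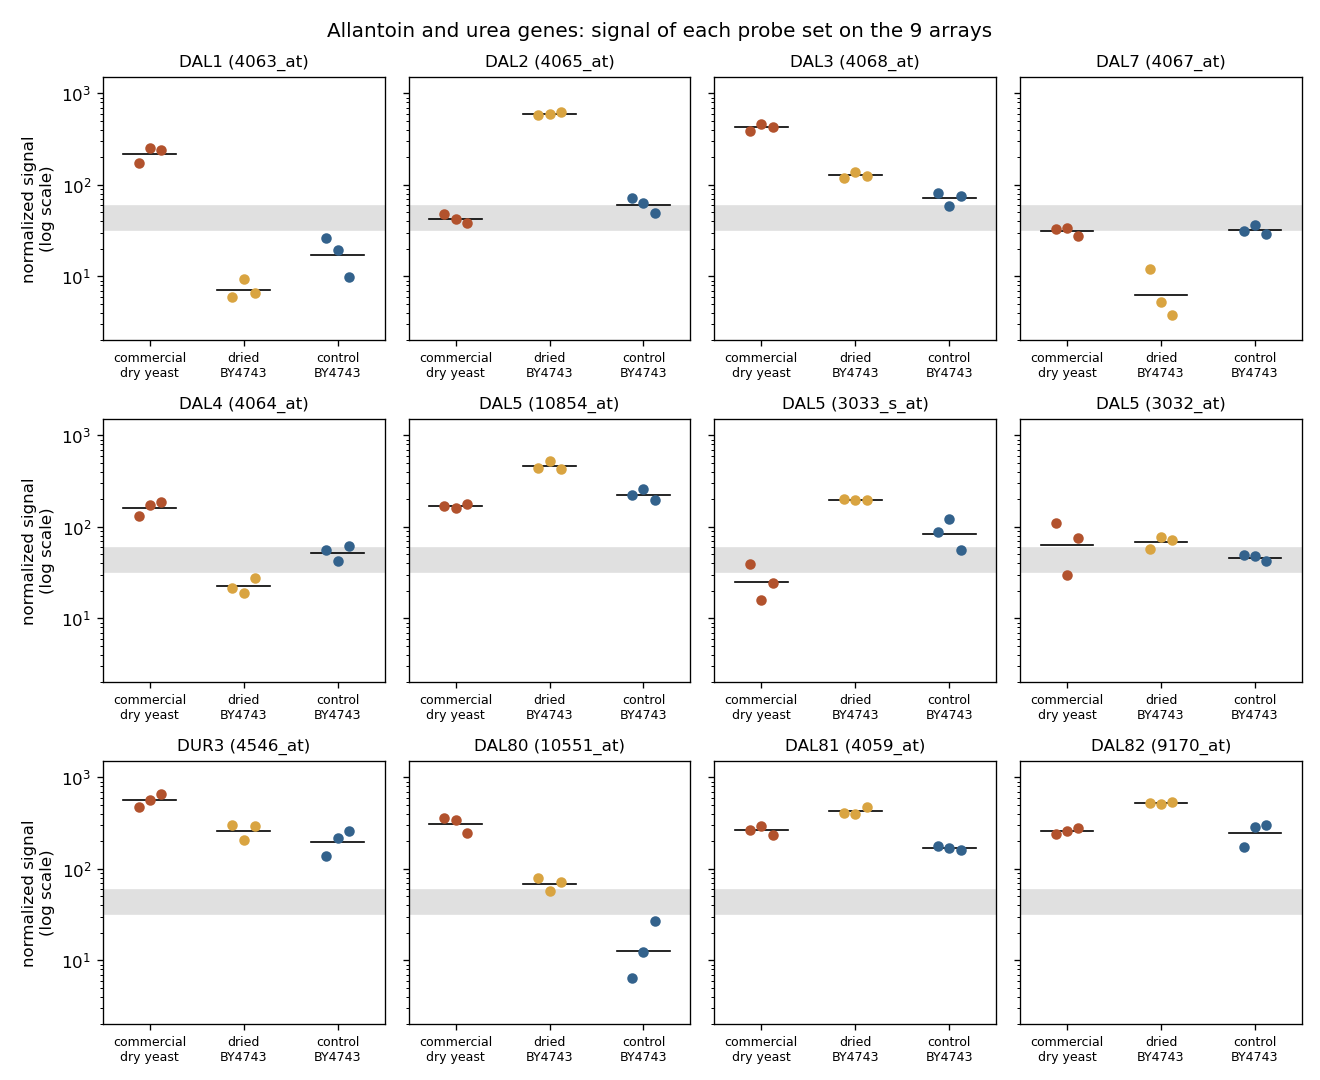
Each panel is 1 probe set, with the gene above it; points are the 3 arrays of commercial yeast, dried BY4743 and control BY4743, the line is the mean of log2 signal, the vertical axis is normalized signal on a log scale, and the grey band spans the background of the arrays. DAL2 averages 597 in dried BY4743 and lies near the band in the other groups, while DAL1 clears the band only in commercial yeast.

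Of the enzymes, DAL1 encodes allantoinase, which opens the ring of allantoin. It read 173, 255 and 242 in commercial yeast, 5.97, 9.45 and 6.60 in dried BY4743, and 26.3, 19.4 and 9.94 in control BY4743. All 6 BY4743 arrays lay under background, and no BY4743 array came near those of commercial yeast. DAL1 was at least 4.33-fold higher in commercial yeast than in dried BY4743 and exceeded the control at least 5.36-fold. No fold is given between dried and control BY4743.

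DAL2 encodes allantoicase, the next step, and ran the other way. Its signals were 48.2, 42.1 and 37.9 in commercial yeast, 578, 590 and 624 in dried BY4743, and 71.5, 63.3 and 49.3 in control BY4743. The dried arrays stood far above all others, and those of commercial yeast cleared their own arrays' background only narrowly. The log2 change was -3.81 (SE 0.15) for commercial over dried BY4743, a 14.0-fold difference, and 3.30 (SE 0.15) for dried over control BY4743, a 9.84-fold difference. Commercial over control gave -0.51 (SE 0.15), which shrank to -0.19 with arrays centred on their medians and to -0.04 with the values as deposited, and was -0.43 without commercial replicate 3. None of these 3 alternatives passed the fit's threshold. With arrays scaled to spike-in controls it grew to -1.69, past the threshold. Commercial over dried BY4743 ran from -4.79 with spike-in scaling to -2.80 with an offset of 50 added to each signal, past the threshold in both.

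DAL3, ureidoglycolate lyase, which releases urea and glyoxylate, read 389, 463 and 426 in commercial yeast, 118, 138 and 125 in dried BY4743, and 82.2, 58.6 and 76.2 in control BY4743. The groups did not overlap. Its log2 change was 1.75 (SE 0.14) for commercial over dried BY4743, 2.57 (SE 0.14) for commercial over control, and 0.82 (SE 0.14) for dried over control BY4743. With spike-in scaling these were 0.45, 1.04 and 0.59, of which only the comparison of commercial with control passed the threshold.

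DAL7 encodes a malate synthase, which can take up the glyoxylate that the pathway releases. It read 32.6, 34.1 and 27.5 in commercial yeast, 12.1, 5.30 and 3.82 in dried BY4743, and 31.0, 36.7 and 29.2 in control BY4743. Commercial and control arrays overlapped, and only 1 array in each of those groups exceeded its background. No fold involving dried BY4743 could be bounded above 1, and commercial over control gave a log2 change of -0.04 (SE 0.38), and -1.05 with spike-in scaling. MLS1, the other malate synthase of yeast and the paralog of DAL7, read 3674 ± 6.36 in commercial yeast, 4566 ± 1335 in dried BY4743 and 68.9 ± 3.37 in control BY4743. MLS1 was higher in commercial yeast than in the control by 5.74 on the log2 scale (SE 0.21, limma, Benjamini-Hochberg adjusted p = 1.78e-07) and higher in dried than in control BY4743 by 6.0 (SE 0.21, adjusted p = 1.24e-07). The DAL7 probe set did not follow these rises.

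Among the permeases, DAL4, which imports allantoin, read 130, 175 and 186 in commercial yeast, 21.5, 19.1 and 27.4 in dried BY4743, and 55.5, 41.9 and 62.1 in control BY4743. Commercial arrays were the highest and dried arrays lay at background. DAL4 was at least 3.19-fold higher in commercial yeast than in dried BY4743. The log2 change of commercial over control was 1.62 (SE 0.21), but only 0.18 with spike-in scaling. Control arrays lay so near background that dried BY4743 could only be bounded as at least 1.03-fold lower. FUR4, the uracil permease and a paralog of DAL4, read 206 ± 68.3 in commercial yeast, 113 ± 23.9 in dried BY4743 and 312 ± 24.7 in control BY4743.

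DAL5, the allantoate permease, had 3 probe sets that differed in size and, for commercial over control, in direction. By the brightest it read 168, 160 and 179 in commercial yeast, 442, 522 and 430 in dried BY4743, and 221, 260 and 195 in control BY4743. Dried arrays were clearly highest, and commercial arrays lay just below those of the control. The log2 change was -1.46 (SE 0.13) for commercial over dried BY4743, -0.41 (SE 0.13) for commercial over control, and 1.05 (SE 0.13) for dried over control BY4743. The commercial over control difference shrank to -0.25 with the values as deposited to -0.30 without control replicate 2 and to -0.37 without commercial replicate 2, none past the threshold. With spike-in scaling it grew to -1.91, and commercial over dried BY4743 to -2.73, both past the threshold.

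The second DAL5 probe set carries a suffix for probes shared with other sequences, so its identity is less certain. It gave the same order, with 39.8, 16.04 and 24.5 in commercial yeast, 199, 197 and 198 in dried BY4743, and 87.6, 123 and 55.7 in control BY4743. All commercial arrays lay at background, so commercial yeast was at least 5.33-fold lower than dried BY4743 and at least 2.27-fold lower than the control. The log2 change of dried over control was 1.23 (SE 0.37), and 0.93, short of the threshold, without control replicate 3. The third was near background with 111, 29.9 and 76.3 in commercial yeast, 56.9, 78.4 and 71.6 in dried BY4743, and 48.7, 48.6 and 41.9 in control BY4743. Commercial replicate 2 decided its commercial over control value, which was 0.45 (SE 0.43) with that array and 0.99 without it.

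DUR3, which imports urea and polyamines, read 473, 568 and 665 in commercial yeast, 298, 208 and 291 in dried BY4743, and 138, 216 and 257 in control BY4743. Commercial arrays stood above all BY4743 arrays, and dried and control arrays overlapped. The log2 change was 1.10 (SE 0.26) for commercial over dried BY4743 and 1.52 (SE 0.26) for commercial over control, though these became -0.28 and -0.079 with spike-in scaling. Dried over control gave 0.41 (SE 0.26).

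Of the regulators, DAL80 encodes a GATA-type repressor that is itself under nitrogen catabolite repression. It read 360, 344 and 244 in commercial yeast, 79.7, 56.9 and 71.4 in dried BY4743, and 6.35, 12.3 and 26.8 in control BY4743. The groups did not overlap, the control lay at background on all 3 arrays, and 2 of 3 dried arrays cleared it. DAL80 was at least 7.60-fold higher in commercial yeast than in the control, and at least 1.67-fold higher in dried than in control BY4743. Commercial over dried BY4743 gave a log2 change of 2.18 (SE 0.47), and 1.01, short of the threshold, with spike-in scaling.

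DAL81, a zinc-cluster activator shared with the pathway for gamma-aminobutyrate, read 267, 293 and 236 in commercial yeast, 411, 401 and 471 in dried BY4743, and 179, 168 and 160 in control BY4743. The groups did not overlap. Its log2 change was -0.69 (SE 0.11) for commercial over dried BY4743 and 1.34 (SE 0.11) for dried over control BY4743. Commercial over control gave 0.65 (SE 0.11), which turned to -0.87 with spike-in scaling.

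DAL82, the activator that answers the pathway's inducer, read 238, 259 and 278 in commercial yeast, 529, 511 and 533 in dried BY4743, and 175, 290 and 298 in control BY4743. Commercial and control arrays overlapped, and dried arrays lay above both. The log2 change was -1.02 (SE 0.20) for commercial over dried BY4743, 0.06 (SE 0.20) for commercial over control, and 1.08 (SE 0.20) for dried over control BY4743. With spike-in scaling commercial over control was -1.49, past the threshold, and dried over control 0.84, short of it.

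**Figure D2:**
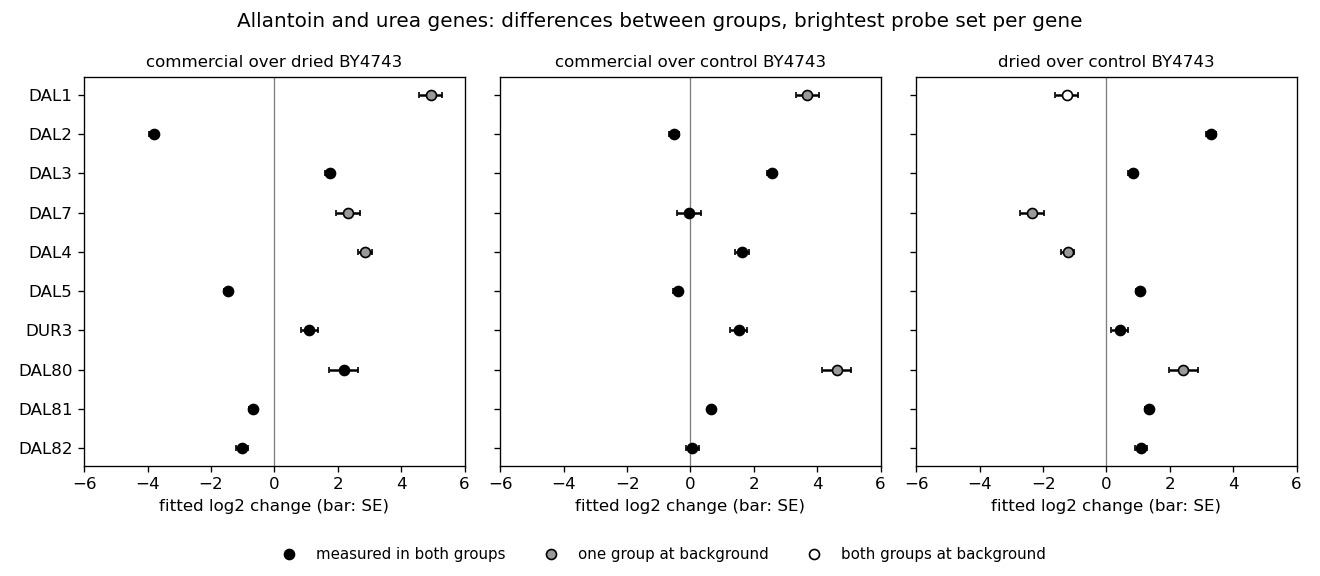
The fitted log2 change of the brightest probe set of each gene is plotted with its SE for 3 comparisons, with positive values higher in the first-named group; black points were measured in both groups, grey points had 1 group at background and the white point both. In the comparison of commercial with dried BY4743, DAL2 lies at -3.81, while the grey point of DAL1 rests on dried signals at background, where only a rise of at least 4.33-fold was measured.

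Counted over the 12 probe sets, the fit's threshold (limma, Benjamini-Hochberg adjusted p under 0.05 over all probe sets) was passed by 6 higher and 5 lower for commercial over dried BY4743, where 66.5% of all probe sets passed, 33.1% higher and 33.5% lower. For commercial over control it was 6 higher and 3 lower, where 72.5% of all passed (35.5% higher, 37.0% lower). For dried over control BY4743 it was 7 higher and 3 lower, where 69.2% passed (36.2% higher, 33.0% lower). Groups did not overlap for 6 higher and 5 lower probe sets of commercial over dried BY4743 (72.8% of all, 36.2% higher and 36.6% lower), 6 higher and 3 lower of commercial over control (75.5%, 37.0% higher and 38.5% lower), and 8 higher and 3 lower of dried over control BY4743 (74.6%, 39.1% higher and 35.5% lower). Since the set was proposed with these comparisons in view, nothing is read from the counts. With spike-in scaling, which puts the median over the whole array at -1.10, -1.43 and -0.29 (log2) for these 3 comparisons, the splits were 3 higher and 6 lower, 3 higher and 6 lower, and 5 higher and 3 lower. With the values as deposited, commercial over control gave 6 higher and 1 lower. With the floor at background, dried over control BY4743 gave 7 higher and 0 lower, since the lower calls of DAL1, DAL4 and DAL7 rest on signals at background. By the brightest probe set per gene, and with unmeasured changes set to their bounds, the median log2 change of the 10 genes was 0.55 for commercial over dried BY4743, 1.08 for commercial over control and 0.78 for dried over control BY4743. The same medians over all 5656 genes were -0.01, -0.01 and 0.00.

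The genes vary by position as well as by role. In the RefSeq gene order of assembly R64, DAL1, DAL4, DAL2, DCG1, DAL7 and DAL3 are direct neighbours on chromosome IX, and DAL81 lies on the same chromosome with 3 genes between it and DAL1. The other members lie elsewhere, DUR3 on chromosome VIII, DAL5 on X, DAL80 on XI and DAL82 on XIV. DCG1, a gene of the cluster whose function is not well known, lay at background on all 9 arrays, with 6.05, 13.0 and 17.4 in commercial yeast, 8.66, 11.2 and 1.60 in dried BY4743, and 24.0, 31.5 and 23.4 in control BY4743.

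Within the cluster, DAL1 and DAL4 were both highest in commercial yeast. DAL2, the next gene along, was lowest there and highest in dried BY4743. In dried BY4743 DAL4, DAL1, DCG1 and DAL7 all lay at background on 3 of 3 arrays, while DAL2 read 597 ± 23.7 between them. DAL3, at the end of the run, was above background in every group.

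**Figure D3:**
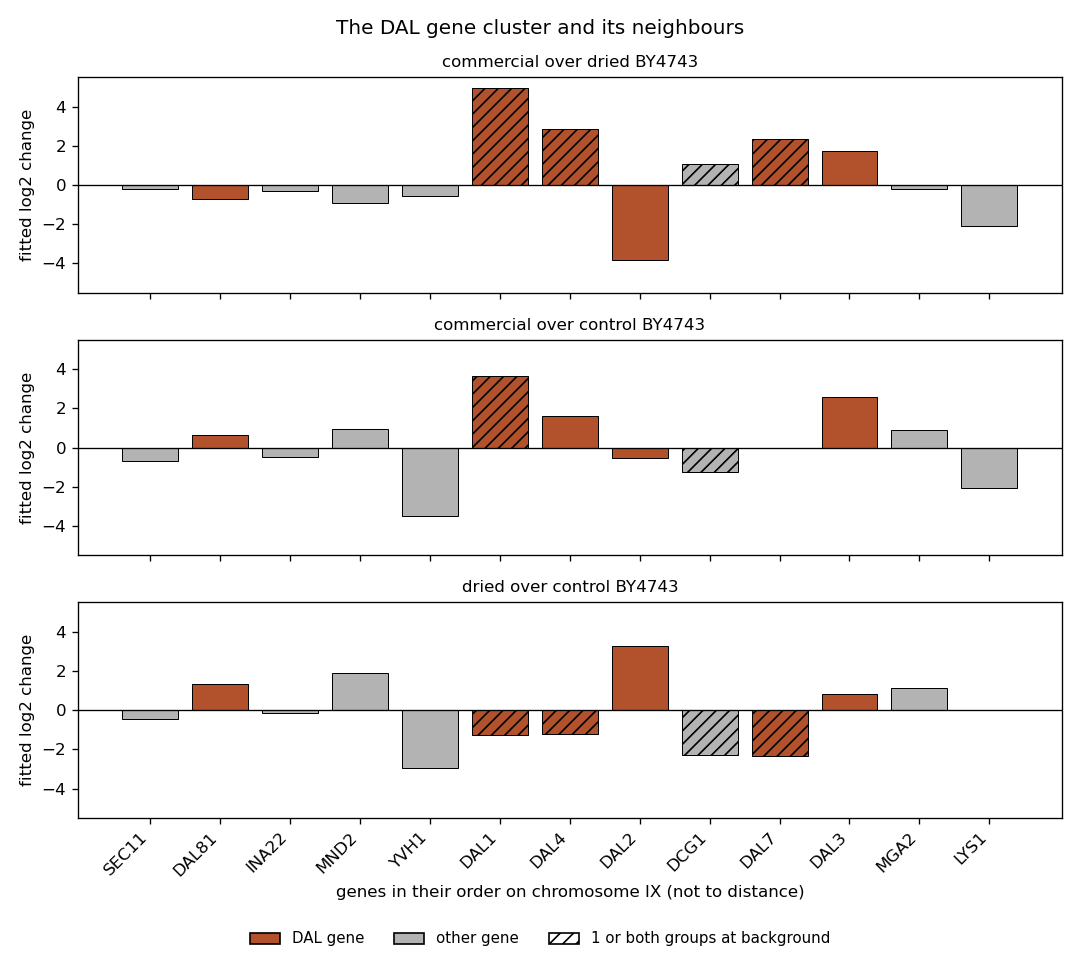
Bars give the fitted log2 change of each gene in its order along chromosome IX, with no error drawn; brown bars are DAL genes, grey bars other genes, and hatching marks genes at background in 1 or both groups. DAL2 lies at -3.81 for commercial over dried BY4743, where DAL1 and DAL4 beside it lie above 0, and at 3.30 for dried over control BY4743, where the bars of DAL1 and DAL4 rest on signals at background.

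The profiles most like those of DAL1, DAL4 and DAL80, the enzyme, permease and regulator with the widest fitted span between groups, were sought among 6503 single-gene probe sets, as the smallest root mean square (RMS) difference of mean-centred log2 signal over the 9 arrays. For DAL1 they were FLO11, a cell surface flocculin, at 0.45, SAM3, an S-adenosylmethionine permease, at 0.51, and RAD59, a recombination protein, at 0.53. For DAL4 they were YFL067W at 0.20, by a probe set with shared probes, YOL029C at 0.25, and NRG2, a repressor of glucose-repressed genes, at 0.26. For DAL80 they were RIM4, a meiotic RNA-binding protein, at 0.35, and the ribosomal protein genes RPP1B at 0.48 and RPL21B at 0.54. No gene of the pathway was among these. The nearest pathway gene was DAL4 for DAL1, at rank 54 with a difference of 1.09, DUR3 for DAL4, at rank 483 with 0.85, and DAL3 for DAL80, at rank 145 with 1.05. Signals of DAL1, DAL4 and DAL80 below background enter these differences and spans. Of the enzymes, DAL2 had the widest span measured above background in every group, at 3.81. Between the 10 genes themselves, DAL5 and DAL82 were closest, at 0.32, and DAL1 and DAL2 farthest apart, at 3.59.

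The activators and signalling proteins upstream of the pathway were taken from a list of 12 nitrogen regulators. For dried over control BY4743, 9 were higher and 1 was lower (limma, adjusted p under 0.05). For commercial over control 9 were higher and 0 lower, and for commercial over dried BY4743 4 were higher and 5 lower. Over all probe sets 36.2% were higher and 33.0% lower, 35.5% and 37.0%, and 33.1% and 33.5% in the same order. The list was chosen with earlier results of these data known, so nothing is read from these counts. The adjusted p-values of regulators below describe these arrays only. With spike-in scaling 10 of the 12 changed sign for commercial over control.

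GLN3, a GATA-type activator of the DAL genes, read 179, 193 and 140 in commercial yeast, 515, 418 and 472 in dried BY4743, and 154, 129 and 195 in control BY4743. The dried arrays stood apart and the others overlapped. GLN3 was 1.57 higher on the log2 scale (SE 0.18, limma adjusted p = 0.000106) in dried than in control BY4743. In commercial yeast it was lower than in dried BY4743, at -1.46 (adjusted p = 0.000204) and gave 0.11 (SE 0.18, adjusted p = 0.612) against the control, which became -1.36 (adjusted p = 0.004) with spike-in scaling.

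GAT1, the second activator, read 1280, 1698 and 1423 in commercial yeast, 1585, 1609 and 1576 in dried BY4743, and 505, 457 and 489 in control BY4743. Both dry yeasts lay above the control and overlapped each other. GAT1 was 1.59 higher (log2, SE 0.11, limma adjusted p = 4.96e-06) in commercial yeast than in the control, though -0.11 with spike-in scaling. It was 1.72 higher (SE 0.11, adjusted p = 2.99e-06) in dried than in control BY4743.

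GZF3, a GATA-type repressor and the paralog of DAL80, read 425 ± 124 in commercial yeast, 600 ± 67.5 in dried BY4743 and 154 ± 8.65 in control BY4743. It was 1.43 higher (log2, SE 0.19, limma adjusted p = 0.000256) in commercial yeast than in the control, though -0.13 with spike-in scaling, and 1.96 higher (SE 0.19, adjusted p = 4.03e-05) in dried than in control BY4743. URE2, which holds Gln3 in the cytoplasm, was higher in commercial yeast than in dried BY4743 by 0.89 (SE 0.11, adjusted p = 0.00023), though -0.50 with spike-in scaling. It was lower in dried than in control BY4743, at -0.40 (SE 0.11, adjusted p = 0.0137). That difference shrank to -0.22 with the values as deposited, short of the threshold, and did not pass it with spike-in scaling either.

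Of the other regulators, TOR1, a kinase that senses nitrogen, differed from control BY4743 by 1.92 in commercial yeast and 0.93 in dried BY4743. These values come from the brightest of 9 TOR1 probe sets, which carries the suffix for shared probes. The other TOR1 probe sets are not given here. NPR1, a kinase that stabilises nitrogen permeases, gave 1.21 and 1.33, TOR2 0.86 and 1.03, and TIP41, of the TOR pathway, 0.64 and 1.67. NPR3, of the complex that restrains TOR, gave 0.48 and 1.83, NPR2 1.32 and 0.31, TAP42 -0.30 and 1.01, and the phosphatase SIT4 0.89 and -0.03. Of these 16 values, those of NPR3 and TAP42 in commercial yeast and of NPR2 and SIT4 in dried BY4743 did not pass the threshold. Both columns use the same control arrays.

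Genes elsewhere in metabolism that nitrogen catabolite repression also holds down gave 16 higher and 7 lower of 26 for commercial over control BY4743, and 16 higher and 7 lower for dried over control BY4743. The commercial over dried comparison gave 8 higher and 12 lower. All probe sets together gave 35.5% higher and 37.0% lower, 36.2% and 33.0%, and 33.1% and 33.5% in the same order. Medians of the 26 were 0.65, 0.81 and -0.33 on the log2 scale in that order. Over all 5656 genes, also by the brightest probe set, they were -0.08, 0.06 and -0.09. This list, the regulators and DCG1 make 39 genes together. With spike-in scaling they were split as 6 higher and 21 lower for commercial over control. The splits were 13 and 8 for dried over control, and 1 and 24 for commercial over dried BY4743. Without that scaling they were 25 and 7, 25 and 9, and 12 and 17. All probe sets together split with that scaling as 814 higher and 6070 lower, 1767 and 2989, and 819 and 5387 in the same order.

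Transporters of other nitrogen sources went both ways against the control. PUT4, MEP2 and GAP1 were far higher in both dry yeasts. MEP3, PTR2 and OPT2 of the same list were lower in both, past the threshold. Their log2 changes were -1.42, -3.45 and -2.14 in commercial yeast, and -2.25, -1.66 and -1.88 in dried BY4743. PUT4, the proline permease, read 5329, 5096 and 5182 in commercial yeast, 3979, 4204 and 4629 in dried BY4743, and 69.4, 92.3 and 69.1 in control BY4743. It was 6.09 higher (log2, SE 0.13, limma adjusted p = 1.89e-08) in commercial yeast and 5.8 higher (SE 0.13, adjusted p = 2.46e-08) in dried BY4743 than in the control. MEP2, a high-affinity ammonium transporter, read 1198 ± 110 in commercial yeast, 1918 ± 147 in dried BY4743 and 83.8 ± 13.8 in control BY4743. It was 3.85 and 4.53 above the control on the log2 scale (limma adjusted p = 1.88e-07 and 7.72e-08). The list was chosen with earlier results of these data known. Genes given p-values from it here and below, MEP2 and GAP1 apart, were picked as those that moved most. All these adjusted p-values therefore describe these arrays and support nothing beyond them.

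GAP1, the general amino acid permease, read 3564 ± 170 in commercial yeast, 5264 ± 126 in dried BY4743 and 525 ± 42.3 in control BY4743. It was 2.77 higher (log2, SE 0.08) in commercial yeast and 3.33 higher (SE 0.08) in dried BY4743 than in the control (limma adjusted p = 8.19e-08 and 3.64e-08). UGX2, a gene under the same control, was 3.57 higher in dried than in control BY4743 (SE 0.09, adjusted p = 4.11e-08). PUT4, MEP2 and GAP1 kept their direction in both comparisons with the control and passed the threshold with spike-in scaling.

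Between the dry yeasts, MEP1, another ammonium transporter, was 2.36 higher (log2, SE 0.12, limma adjusted p = 1.59e-06) in commercial yeast, at 3473 ± 204 against 682 ± 101 in dried BY4743. AGP1, a broad amino acid permease, was lower in commercial yeast by a log2 change of -4.10 (SE 0.16, adjusted p = 6.29e-07), at 173 ± 25.4 against 2945 ± 146 in dried BY4743. It also lay far under the 2930 ± 582 of the control. BAT2, a cytosolic aminotransferase, and CPS1, a vacuolar carboxypeptidase, were lower in commercial than in dried yeast, at -2.15 (SE 0.17, adjusted p = 1.81e-05) and -1.91 (SE 0.13, adjusted p = 7.75e-06). PTR2, the peptide transporter, was lower in commercial yeast than in the control at -3.45 (SE 0.15, adjusted p = 4.9e-07).

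**Figure D4:**
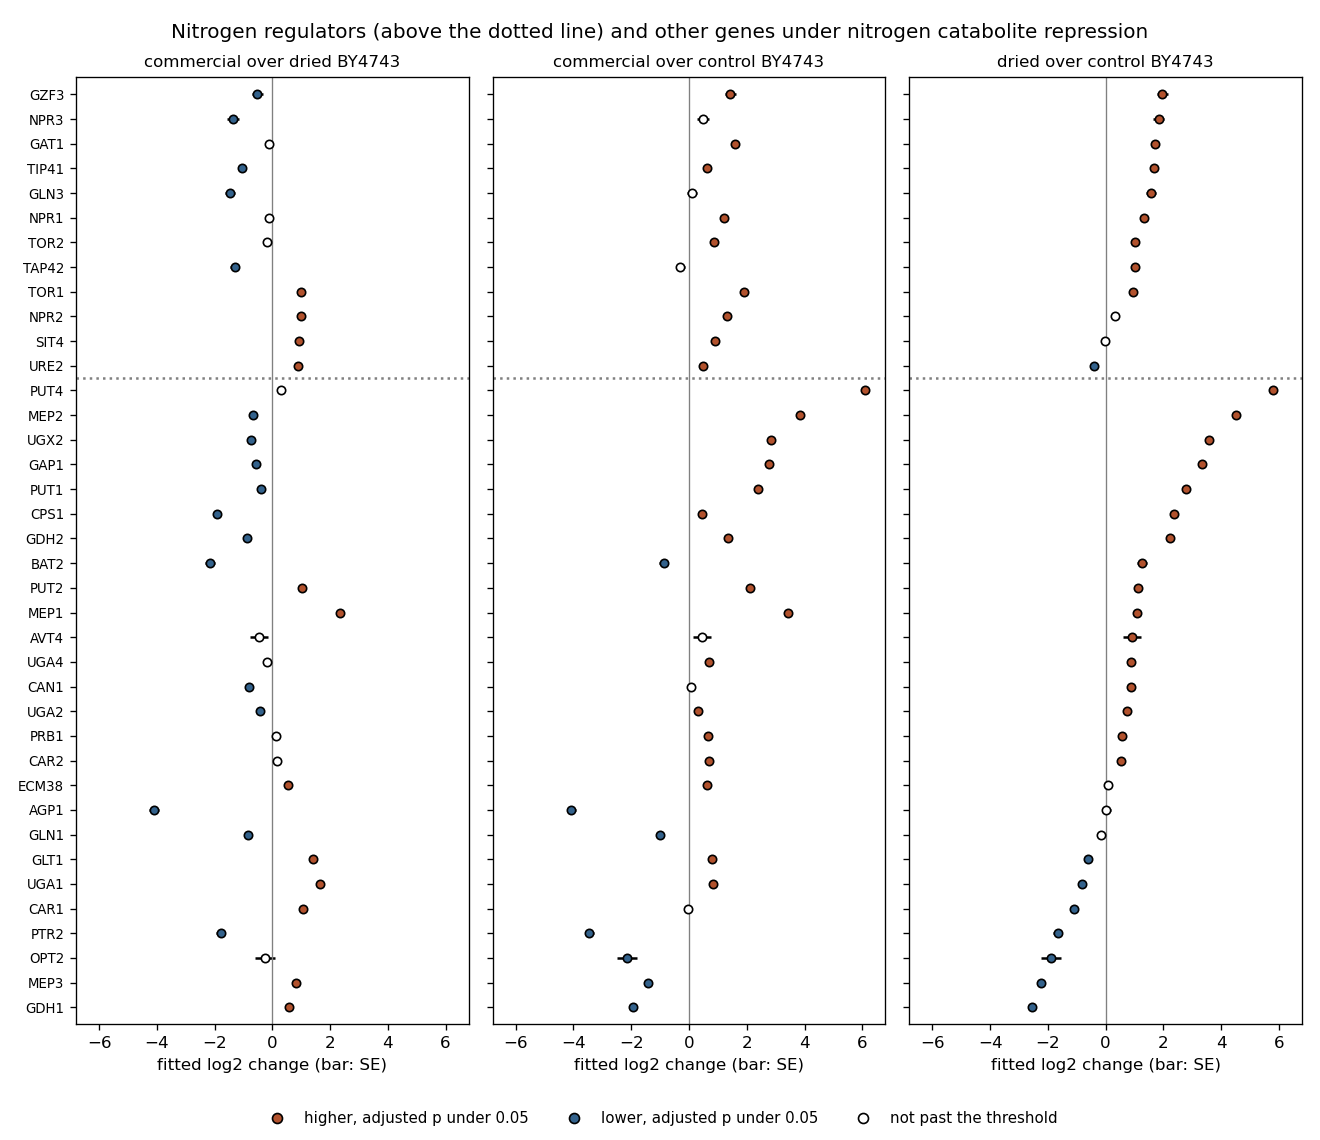
Points are fitted log2 changes with SE for 12 nitrogen regulators, above the dotted line, and 26 other genes under nitrogen catabolite repression, coloured by whether limma's adjusted p was under 0.05; positive values are higher in the first-named group. PUT4 lies near 6 in both comparisons with control BY4743, which share the control arrays, and AGP1 lies at -4.10 for commercial over dried BY4743.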

How the data were processed

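Labelled RNA copies were hybridised to Affymetrix Yeast S98 arrays and the images analysed in Affymetrix software, after which a Wilcoxon test and a linear mixed model were applied to the probe sets, per the labels' protocols, which name no versions. Each deposited value is a linear intensity of a probe set on an array. The mean of an array's deposited values, with the extremes left out, lay between 500.2 and 500.3 on every array. The values as deposited therefore already share a common scale. Signals under 1 were raised to 1, log2 was taken, and arrays were quantile normalized, since their log2 medians spanned 0.284 (limit 0.1). The 60 control probe sets were left out and 9275 tested with limma 3.58.1 in R 4.3.3 (lmFit, eBayes, 1 mean per group, 6 residual and 1.64 prior degrees of freedom, two-sided, Benjamini-Hochberg threshold 0.05). The fit was tested on simulated data. Gene names came from the platform annotation, updated to RefSeq R64 by gene identifier. DUR1,2 has no named probe set there and was not analysed here. For other genes the brightest probe set stood for the gene. The other nitrogen genes named are all regulators, DCG1, and per comparison the 4 targets that moved most, with GAP1 and MEP2. MEP3 and OPT2 were added as listed transporters that went the other way. Of the paralogs, MLS1, FUR4, GZF3 and the listed relatives of DAL5 are named. The number of arrays limits precision. The members and lists were chosen with earlier results of these data known. The background level, scaling to 9 spike-in probe sets and the floor at background were chosen after seeing the data. Alternatives covered normalization, floor, offset, dim probe sets, the arrays fitted, a replicate block and leaving out each array.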

Additional observations from a re-analysis of the deposited data

How the results depend on the processing

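Counts past the threshold stayed within 1.5 times under the alternatives, except that with spike-in scaling 21 of 39 other nitrogen genes, in place of 34, passed for dried over control BY4743. Leaving out each array in turn gave 11 of the 12 probe sets throughout for commercial over dried, 8 to 9 for commercial over control and 9 to 11 for dried over control. With spike-in scaling all probe sets split as 819 higher and 5387 lower for commercial over dried (3067 and 3103 otherwise), 814 and 6070 for commercial over control (3293 and 3434), and 1767 and 2989 for dried over control (3358 and 3063). Among the members and regulators, that setting reversed, for commercial over dried, DUR3 (-0.28), URE2 (-0.50), TOR1 (-0.43), SIT4 (-0.48) and NPR2 (-0.13). Reversals of the other genes under nitrogen catabolite repression are not listed here. For commercial over control it reversed DUR3 (-0.079), DAL81 (-0.87), GLN3 (-1.36), GAT1 (-0.11), GZF3 (-0.13), URE2 (-1.14), TOR2 (-0.76), SIT4 (-0.73), TIP41 (-0.95), NPR1 (-0.53), NPR2 (-0.13) and NPR3 (-0.96); the cause was not tested. With the floor at background, values of DAL1 (0.31), DAL7 (0.24) and DCG1 (0.31) for dried over control and of DAL7 (-0.43) and DCG1 (-0.45) for commercial over dried turned, since raised signals then follow the arrays' background. Of 535 values of the 12 probe sets under alternatives whose comparison had passed, 20 lost the call and 6 changed sign. For the 39 other nitrogen genes, 63 of 1709 such values lost the call and 28 changed sign. Same-numbered arrays (r of -0.04 to 0.04) deviated together no more than differently numbered ones (-0.06 to 0.08). With 3 arrays per group this shows no pairing by number but cannot exclude it. A replicate block gave 6015, 6618 and 6330 calls over all probe sets in that order, and 11, 9 and 10 of the 12.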

Other observations

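Relatives of the DAL5 permease went both ways between the dry yeasts. SEO1, THI73, TNA1, VHT1 and YCT1 were higher in commercial yeast than in dried BY4743, past the threshold. FEN2 was lower, at -0.69 on the log2 scale. With spike-in scaling only SEO1 and THI73 stayed higher past the threshold, and FEN2 was -1.99. THI73, SEO1 and TNA1 are given in full because they moved most among these relatives. Their adjusted p-values therefore describe these arrays and support nothing beyond them. THI73, a putative carboxylate permease, read 1042, 1070 and 960 in commercial yeast, 141, 154 and 147 in dried BY4743, and 69.7, 79.3 and 78.4 in control BY4743. It was higher in commercial yeast than in dried BY4743 by 2.79 on the log2 scale (SE 0.09, limma adjusted p = 2.32e-07) and higher in dried than in control BY4743 by 0.96 (SE 0.09, adjusted p = 2.19e-05). With spike-in scaling these were 1.41 and 0.74, and the second fell short of the threshold. SEO1, another putative permease of the family, read 510, 449 and 530 in commercial yeast, 37.1, 34.0 and 57.6 in dried BY4743, and 24.4, 39.8 and 13.0 in control BY4743, where 1 array in each BY4743 group cleared background. It was 3.57 higher (SE 0.39, limma adjusted p = 9.3e-05) in commercial than in dried yeast, and 2.44 higher with spike-in scaling.

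TNA1, the nicotinic acid permease, was lower in dried than in control BY4743. It read 1927 ± 97.7 in commercial yeast, 611 ± 23.4 in dried BY4743 and 3679 ± 358 in control BY4743, a log2 change of -2.59 (SE 0.09, limma adjusted p = 1.44e-07) for dried over control, and -2.88 with spike-in scaling. Of 10 listed paralogs of the pathway's genes, those of DAL5 among them, 6 were higher and 3 lower for commercial over dried, 6 and 2 for commercial over control, and 4 and 4 for dried over control BY4743 (limma, adjusted p under 0.05). Over all probe sets 33.1% were higher and 33.5% lower, 35.5% and 37.0%, and 36.2% and 33.0% in the same order. With spike-in scaling the 10 split as 2 higher and 4 lower, 3 and 6, and 2 and 4.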
